A study of Mus musculus with 4 samples.

Results

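Spleen cells of BCL1-bearing mice given anti-CD20 together with anti-CD27 were compared with those of BCL1-bearing mice given anti-CD27 alone, which asks what the anti-CD20 antibody added to anti-CD27. Cells were droplet barcodes with 300 to 3000 detected genes, and 432 were kept from the combination and 497 from anti-CD27 alone, of 1770 kept in all 4 libraries and 3198 barcodes in the table. BCL1 is a transplantable B cell lymphoma of BALB/c mice that grows in the spleen. The labels give an inoculum of 10000 tumor cells on day 0 and harvest of the spleen on day 13. Anti-CD20 was given on day 4 and anti-CD27 daily from day 5 to day 8 in the combination, whereas the anti-CD27 group received only the latter. The other libraries were of BCL1-bearing mice given isotype control or anti-CD20 alone. The labels give no age of the mice, and the number of mice behind each library is not given in the sources used here. Each treatment had 1 library, so no difference between treatments could be tested and none of those below has a replicate check. Every interval is an exact 95% interval or, for a difference of shares, a 95% Newcombe interval, and all of them cover counting error only.

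CD20 is a membrane protein of mature B cells and of B cell lymphomas, and antibodies that bind it mark the cell for macrophages and natural killer (NK) cells through their Fc receptors. CD27 is a costimulatory receptor of the TNF receptor family, carried by T cells and by some NK cells. Its stimulation together with the T cell receptor promotes expansion of CD8+ T cells and their release of chemokines and interferon gamma (IFNg). IFNg induces guanylate-binding proteins, immunity-related GTPases and the chemokines Cxcl9 and Cxcl10 in myeloid cells, and raises the antigen-presenting and phagocytic capacity of macrophages. The study describes BCL1 cells as not bound by its anti-CD27 antibody.

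The unit of the deposited table was the UMI count, the number of distinct RNA molecules counted for a gene in a cell. The cells kept held 917486 UMIs in the combination and 908930 with anti-CD27 alone, with a median of 1395.5 and 1209 UMIs and 767 and 671 genes a cell. No barcode of the kept cells was shared between libraries. In the combination, 30 barcodes (3.75% of its 800, interval 2.54 to 5.31) exceeded 3000 genes and were left out, beside 14 of 799 (1.75%, interval 0.961 to 2.92) with anti-CD27 alone. Barcodes under 300 genes numbered 338 and 288, and haemoglobin RNA made up 45.2% and 45.5% of their UMIs. Cells of the 4 libraries were clustered together without the genes of the lists described below, and 14 clusters were named from marker genes. A class name ending in "-like" means only that at least 3 markers of that class were among the 30 leading genes of the cluster. The label of the samples as splenocytes was met by B, T, NK, myeloid and erythroid markers, each of which led at least 1 cluster.

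The B cells separated the 2 libraries. Of the 497 cells with anti-CD27 alone, 187 were B-like (37.6%, interval 33.4 to 42.0) and 7 were germinal center B-like (1.41%). Of the 432 cells of the combination, 3 were B-like (0.694%, interval 0.143 to 2.02) and 0 were germinal center B-like. For that count of 0, a floor of 3 counts would be a share of 0.694%, which is not an interval limit. For both B classes together the shares were 0.694% and 39.0%, a difference of -38.3 percentage points (interval -42.7 to -33.9). Anti-CD20 alone against isotype control gave 43.9% against 65.6%, a difference of -21.7 points (interval -28.1 to -14.9). The germinal center B-like class, led by Rgs13, Mybl1 and S1pr2, held 45, 115, 7 and 0 cells with isotype control, anti-CD20, anti-CD27 and the combination. It was therefore larger with anti-CD20 alone than with isotype control and small in both libraries that received anti-CD27. These classes can hold BCL1 cells and the host's own B cells, which cannot be told apart from these genes.

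Ms4a1, which encodes CD20 itself, was read 722 times with isotype control, 1577 times with anti-CD20, 710 times with anti-CD27 and once with the combination, where 1 of 432 cells held it. As counts per 1000000 UMIs of the library (CPM) these were levels of 1638, 1678, 781 and 1.09. The log2 CPM ratio of the combination over anti-CD27 was -9.49 (interval -14.79 to -7.00). The level with anti-CD20 alone was thus close to that with isotype control, and only the library that received both antibodies was nearly without Ms4a1 among the 4.

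Cd79b, a signalling chain of the B cell receptor, had 13 UMIs in the combination and 451 with anti-CD27 alone (log2 CPM ratio -5.13, interval -6.05 to -4.34). Cr2, the complement receptor CD21, had 1 and 252 UMIs. The B cell transcription factors Pax5 and Ebf1 had 2 against 90 and 4 against 125 UMIs. Some B cell genes were at 0 in the combination, and their folds are given against a floor of 3 counts in that library. Tnfrsf13c, the receptor for the survival factor BAFF, was 40.4-fold lower against that floor, with 120 UMIs under anti-CD27 alone. The upper interval limit of its log2 CPM ratio was -5.01. Fcer2a, the low-affinity IgE receptor CD23, was 37.3-fold lower against the floor, with an upper limit of -4.90. Those 2 genes are defining genes of mature B cells, and neither was read in any of the 432 cells.

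A gene was counted as past 2-fold when the ratio of its CPM + 10 in the 2 libraries was at least 2 either way, over genes with at least 30 UMIs in both together. Over all cells, 106 of 7399 genes were past 2-fold higher in the combination (1.43%) and 134 were past 2-fold lower (1.81%). Members of a gene list were measured from 10 UMIs, and over all genes at that minimum the shares were 1.44% and 1.76%. Of the 25 genes of B cell antigens and signalling, 24 were past 2-fold lower and the median log2 ratio of CPM + 10 was -3.16, beside -0.01 over all 10169 genes measured. The same list with anti-CD20 alone against isotype control had a median of -0.45, with 3 genes past 2-fold lower. The smallest differences in the list were those of Cd180, a Toll-like receptor relative that B cells and myeloid cells carry (32 and 63 UMIs, log2 CPM ratio -0.99, interval -1.65 to -0.35), and Btk, a kinase that myeloid cells also express (51 and 120 UMIs, -1.25, interval -1.75 to -0.76). Cd37, a tetraspanin that other leukocytes also carry, had 154 and 644 UMIs (-2.08). Members of the MHC class II list that act in B cells were lower as well: H2-Ob had 9 and 96 UMIs and H2-DMb2 had 74 and 336. Cd74, the invariant chain of MHC class II, was at 3454 and 6345 CPM over all cells, against 3432 and 2133 CPM once B-like cells were left out of both libraries.

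**Figure D1:**
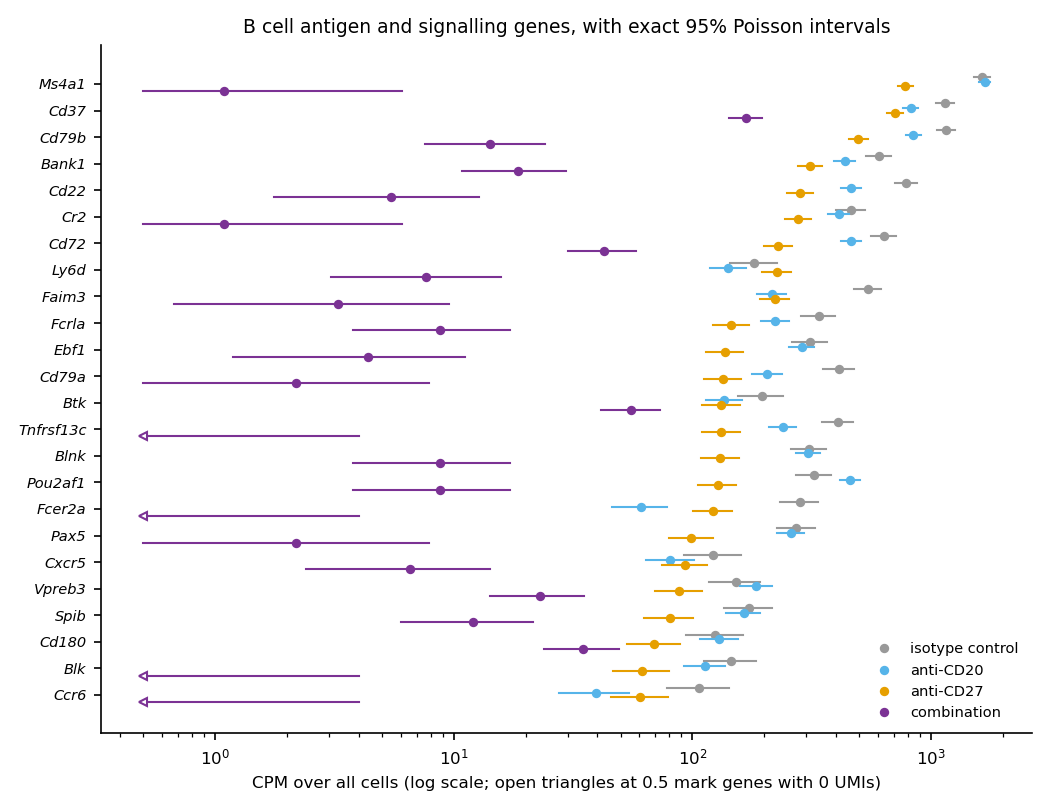
Level in CPM over all cells, on a log axis, of genes of the B cell list in the 4 libraries, with exact 95% Poisson intervals as lines and open triangles for genes with 0 UMIs. The combination lies below the other libraries for every gene drawn, farthest for Ms4a1 with 1 UMI beside 710 with anti-CD27 alone and closest to anti-CD27 alone for Cd180 and Btk.

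Few B-lineage cells of the combination could be examined. Its 3 B-like cells belonged to a small cluster of 17 cells led by Vpreb3, a component linked to the pre-B cell receptor, and held 1706, 1027 and 752 UMIs, with 16, 0 and 3 UMIs of Vpreb3 and 3, 2 and 1 of Cd79b. None of them held Ms4a1. The main B-like cluster, led by Fcer2a and Cr2, had 182 cells with anti-CD27 alone and 0 with the combination. The 1 plasma-like cell of the combination, with 4988 UMIs, carried 1162 UMIs of Ighm, 1246 of Igkc and 447 of Igj, the joining chain of secreted IgM. Immunoglobulin RNA took 0.351% of all UMIs with the combination and 2% with anti-CD27 alone.

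Fewer UMIs of the B cell list were also read outside the B classes in the combination. The B cell list summed to 377 CPM in T-like cells of the combination and 1236 CPM in those of anti-CD27 alone (log2 ratio -1.71, interval -2.20 to -1.24). In macrophage/monocyte-like cells the sums were 437 and 776 CPM, and in granulocyte-like cells 375 and 677 CPM. Some list members, such as Btk, Cd180 and Cd37, are expressed by myeloid cells or other leukocytes too, and the part of RNA from other cells in these sums was not tested.

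Shares of all cells were higher in the combination for most other classes. Macrophage/monocyte-like cells were 20.8% with the combination and 8.65% with anti-CD27 alone, a difference of 12.2 points (interval 7.65 to 16.8). T-like cells were 28.9% and 18.3%, 10.6 points higher (interval 5.16 to 16.1). Granulocyte-like cells were 16.7% and 10.1%, erythroid-like cells 12.3% and 7.04%, and NK-like cells 2.78% and 0.201%. Effector CD8 T-like cells were close, at 12% and 10.9% (difference 1.17 points, interval -2.92 to 5.36).

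When both B classes were taken out of the denominator, 429 and 303 cells were left and the shares gave another order. Macrophage/monocyte-like cells were 21.0% with the combination (90 cells, interval 17.2 to 25.1) and 14.2% with anti-CD27 alone (43 cells, interval 10.5 to 18.6), 6.79 points higher (interval 1.13 to 12.2). NK-like cells were 12 and 1, or 2.80% and 0.330%, 2.47 points higher (interval 0.54 to 4.51). Effector CD8 T-like cells were 12.1% and 17.8%, a difference of -5.70 points (interval -11.2 to -0.51), and plasma-like cells were 0.233% and 2.31%, a difference of -2.08 points (interval -4.47 to -0.48). The effector interval included 0 with 1000 variable genes (-7.76 to 2.47), with near-identical barcodes removed (-8.48 to 1.92) and with cells named by their own markers in place of clusters (-5.48 to 1.29), and the macrophage/monocyte interval did with at least 500 genes a cell (-1.04 to 12.9). For the other classes the interval of the difference included 0. T-like cells were 29.1% and 30.03% (interval -7.66 to 5.73), granulocyte-like cells 16.8% and 16.5% (interval -5.34 to 5.64) and erythroid-like cells 12.4% and 11.6% (interval -4.14 to 5.46). Dendritic-like cells differed by -0.58 points (interval -4.28 to 2.76). Shares that make up a whole are not independent, and absolute cell numbers per spleen were not part of the table.

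**Figure D2:**
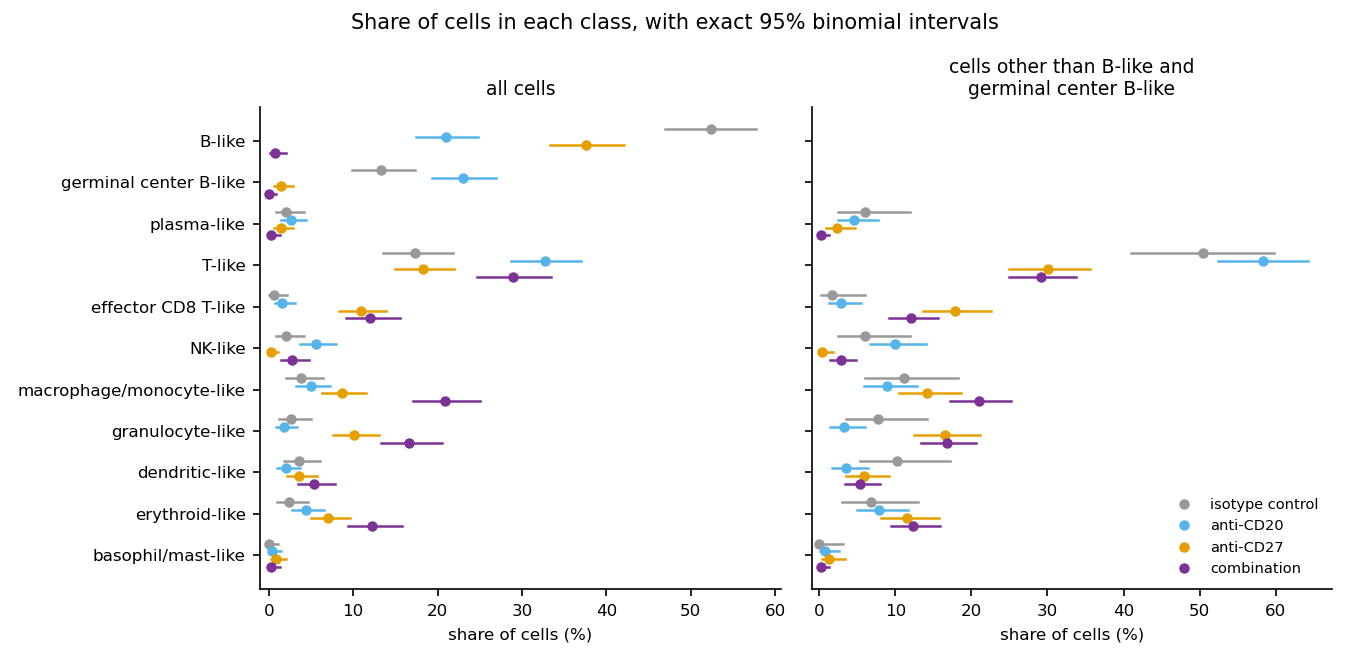
Share of cells in each class in percent, in all kept cells (left) and with both B classes taken out (right), for the 4 libraries, with exact 95% binomial intervals as lines. On the left B-like cells lie at 0.694% with the combination and 37.6% with anti-CD27 alone, and on the right the macrophage/monocyte-like and NK-like shares of the combination lie above those of anti-CD27 alone.

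The macrophage/monocyte-like class joined 2 clusters. One was led by Cxcl9 and by the monocyte genes F13a1, Msr1 and Lyz2 and had 73 cells of the combination and 38 of anti-CD27 alone. The other was led by C1qa, C1qb, Vcam1 and Slc40a1, genes of resident splenic macrophages that recycle iron, and had 17 and 5 cells. The first cluster held 81.1% of the class in the combination and 88.4% with anti-CD27 alone. Of the 2 granulocyte-like clusters, one was led by Cxcr2, Csf3r and Il1b, genes of mature neutrophils, with 47 and 27 cells, and the other by the granule genes Camp, Ngp, Ltf and Lcn2, which immature neutrophils express, with 25 and 23 cells.

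Over all cells, the 6 genes with the largest CPM ratio in favour of the combination were Ncr1, Irg1, Saa3, Ms4a7, Xcl1 and Kdr. Ncr1, the activating receptor NKp46, had 55 UMIs with the combination and 3 with anti-CD27 alone (log2 CPM ratio 4.18, interval 2.56 to 6.504), of which 48 lay in NK-like cells. It had 15 UMIs with isotype control and 72 with anti-CD20. Irg1, the enzyme that makes the antimicrobial metabolite itaconate, had 83 and 7 UMIs (3.55, interval 2.45 to 4.91) in 30 and 3 cells, and 0 with isotype control and with anti-CD20. Saa3, an acute-phase protein, had 48 and 5 UMIs (3.25, interval 1.93 to 4.94), with 25 of the 48 in 1 cell. Ms4a7, a membrane protein of macrophages, had 37 and 4 UMIs (3.20), with 21 of the 37 in macrophage/monocyte-like and 12 in dendritic-like cells. Xcl1, a chemokine for cross-presenting dendritic cells, had 44 and 6 UMIs (2.86), of which 31 lay in NK-like and 11 in effector CD8 T-like cells. Kdr, the VEGF receptor, had 30 and 5 UMIs (2.57). Xcl1 was read in 6 cells of the combination and Kdr in 11, with up to 19 and 12 UMIs in 1 cell.

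The 12 NK-like cells of the combination could not be compared with the single one of anti-CD27 alone. Of the 12, 11 held Ncr1. They carried 417 UMIs of Ccl5, a chemokine for T cells and monocytes, at 15522 CPM, together with 46 of Ccl4 and 31 of Xcl1. Gzma, a granule protease of NK cells and killer T cells, had 494 and 100 UMIs over all cells (2.29, interval 1.98 to 2.62), with as many as 109 in 1 cell. It was read in 29 and 25 cells, close to the same number of cells in each library.

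Without B-like, germinal center B-like and plasma-like cells, 428 and 296 cells remained and fewer genes differed. Of 6817 genes, 52 were past 2-fold higher with the combination (0.763%) and 28 were past 2-fold lower (0.411%), or 1.07% and 0.729% from 10 UMIs. The lowest in the combination were products of basophils and mast cells. Mcpt8, a basophil protease, had 42 and 485 UMIs (log2 CPM ratio -4.07, interval -4.56 to -3.62), and Prss34, another basophil protease, had 4 and 275 UMIs (-6.65). Cpa3, a carboxypeptidase of the same cells, had 2 and 73 UMIs. The basophil/mast-like cluster had 1 cell in the combination and 4 with anti-CD27 alone, so these values rest on 5 cells. Most gene lists lay near 0 in this comparison. The antiviral list had a median log2 ratio of CPM + 10 of 0.24, with 29 of 35 genes above 0, and the IFNg-inducible list 0.39, with 21 of 25 above 0 and 2 past 2-fold higher. MHC class I genes had a median of -0.03, glycolysis genes -0.20 and checkpoint and costimulatory genes -0.31, each beside 0.00 over all genes measured.

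The 9 genes that the study singles out in its text were taken as a list, which was chosen on these samples and is not independent evidence of a direction. Over all cells all 9 had a log2 CPM ratio above 0, with a median on the CPM + 10 scale of 0.56, and 1 was past 2-fold. Leaving out the B lineage, 6 of 9 were above 0, the median was 0.30 and none was past 2-fold. Fcgr4, an activating Fc receptor of monocytes and neutrophils that binds mouse IgG2a, was at 0, 10.6, 77.0 and 166 CPM over all cells with isotype control, anti-CD20, anti-CD27 and the combination. It had 152 UMIs with the combination and 70 with anti-CD27 alone, a log2 CPM ratio of 1.11 (interval 0.69 to 1.53) over all cells and 0.62 (interval 0.19 to 1.05) without the B lineage.

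Cxcl9, which draws CXCR3-bearing T cells and is induced by IFNg, was at 11.3, 20.2, 354 and 641 CPM over all cells in the same order. Its log2 CPM ratio of the combination over anti-CD27 was 0.86 (interval 0.66 to 1.06), and 0.33 (interval 0.13 to 0.53) without the B lineage. Isg15, a ubiquitin-like protein induced by interferons, was at 107, 92.6, 336 and 534 CPM, with ratios of 0.67 (interval 0.46 to 0.88) and 0.32 (interval 0.10 to 0.54). For Cxcl9 and Isg15 much of the rise in CPM from isotype control was already present with anti-CD27 alone. The part gained over anti-CD27 was smaller once the B lineage was left out of both libraries.

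Mki67, the proliferation antigen, was at 513, 749, 486 and 723 CPM over the 4 libraries. The ratio of the combination over anti-CD27 was 0.57 (interval 0.40 to 0.75), and 0.30 (interval 0.12 to 0.49) without the B lineage. Ifng itself had 44 and 23 UMIs, with ratios of 0.92 (interval 0.16 to 1.72) and 0.52 (interval -0.26 to 1.35). Of the 44, 14 came from 1 barcode described below, and of the 23, 10 came from 1 effector CD8 T-like cell. Ifitm3, an interferon-induced restriction factor, had 1304 and 879 UMIs, with ratios of 0.56 (interval 0.43 to 0.68) and 0.04 (interval -0.08 to 0.17).

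The chemokines Ccl5, Ccl3 and Ccl4 were not higher once the B lineage was left out, except for Ccl3 and Ccl4 where 1 cell of anti-CD27 alone was taken out. Ccl5 had a ratio of 0.38 (interval 0.27 to 0.49) over all cells and -0.04 (interval -0.15 to 0.07) without it. Ccl3 had 0.26 (interval -0.10 to 0.62) and -0.26 (interval -0.62 to 0.11). The latter turned to 0.46 without 1 cell of anti-CD27 alone that held 47 Ccl3 UMIs. Ccl4 had 0.10 (interval -0.17 to 0.38) and -0.41 (interval -0.68 to -0.13), and without the same cell, which held 85 Ccl4 UMIs, the latter turned to 0.33. No cell of the combination was left out for these 2 values, so they are not a balanced check. These chemokines were read mainly in effector CD8 T-like cells, which held 93.4% of Ccl4 UMIs with anti-CD27 alone and 71.3% with the combination, where NK-like cells held a further 20%. For Ccl5 the same shares were 74.9% and 50.8%, with 25.4% in NK-like cells of the combination.

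**Figure D3:**
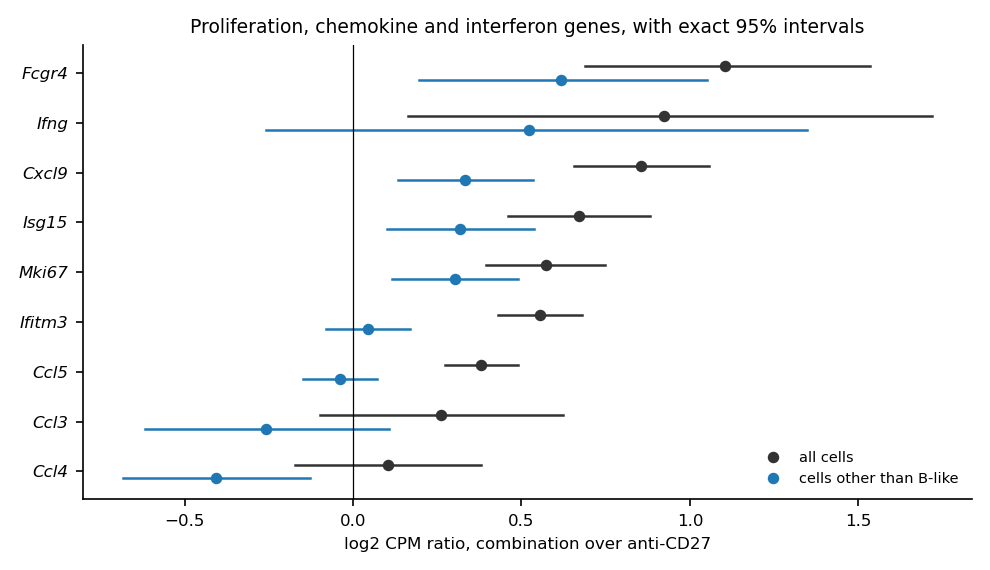
Log2 CPM ratio of the combination over anti-CD27 for the 9 genes, over all cells and without the B lineage, with exact 95% intervals as lines and 0 marked. Every point moves toward 0 or below it once the B lineage is left out, for example Ccl5 from 0.38 to -0.04, whereas Fcgr4, Cxcl9, Isg15 and Mki67 keep intervals above 0.

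The effector CD8 T-like cells, 52 with the combination and 54 with anti-CD27 alone, carried some effector transcripts, such as Ccl5, at similar levels. Isotype control and anti-CD20 had 2 and 8 such cells. Ccl5 was at 5750 and 6241 CPM (log2 CPM ratio -0.12, interval -0.25 to 0.02). Gzmb, the granzyme that triggers apoptosis in target cells, had 92 and 102 UMIs (-0.10, interval -0.52 to 0.32), and Nkg7, a cytotoxic granule protein, had 386 and 411 (-0.04, interval -0.25 to 0.16). Gzma had 79 and 47 UMIs (0.80, interval 0.26 to 1.35). Ifng had 25 and 16 UMIs (0.69, interval -0.27 to 1.70) and was read in 21.2% and 9.26% of cells. Of the 16, 10 lay in 1 cell of anti-CD27 alone, which also held 85 Ccl4 UMIs. Among the alternatives the Ifng ratio ranged from 0.44 to 2.03. Ccl4 had 164 and 198 UMIs (-0.22, interval -0.53 to 0.08), of which 85 lay in 1 cell of anti-CD27 alone. The ratio was 0.51 with that cell left out and every cell of the combination kept. None of the 11 measured genes of the cytotoxic granule list was past 2-fold, and its median log2 ratio was 0.05, beside -0.04 over all genes measured in the class.

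Among the effector CD8 T-like cells, 51 of 1981 genes were past 2-fold higher with the combination (2.57%) and 47 past 2-fold lower (2.37%), and from 10 UMIs the shares were 5.44% and 7.29%. Mitosis genes stood higher: 6 of 26 were past 2-fold higher and 23 were above 0, with a median of 0.42. Cenpf, a kinetochore protein of dividing cells, had 60 and 13 UMIs (2.25, interval 1.37 to 3.24), and Cenpe, a kinetochore motor, had 79 and 30 (1.45). Ube2c and Cdc20, which serve the ubiquitin ligase that ends mitosis, had 74 against 33 and 30 against 11 UMIs. Mki67 had 146 and 107 UMIs (0.50, interval 0.13 to 0.87). The 22 measured genes of DNA replication had a median of -0.13 with none past 2-fold. The share of cells with at least 5 UMIs of mitosis genes was 51.9% (27 of 52) and 48.1% (26 of 54), a smaller difference than that in mitosis UMIs.

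Other genes of this class with large ratios had few UMIs. Aim2, a sensor of cytosolic DNA, had 29 and 3 UMIs (3.32, interval 1.63 to 5.68) in 16 and 2 cells, and Ndc80, a kinetochore protein, had 31 and 8. Lower with the combination were Il7r, the receptor for the survival cytokine IL-7, with 8 and 25 UMIs (-1.60), and Lag3, an inhibitory receptor, with 5 and 14. Pdcd1, which encodes PD-1, had 46 and 28 UMIs (0.76). Of the 18 measured IFNg-inducible genes 5 were past 2-fold higher and 1 lower. Gbp2, a guanylate-binding protein, had 19 and 4 UMIs and Ly6a, a membrane protein of activated T cells, had 56 and 27. Gbp9 went the other way, with 5 and 19 UMIs. Haemoglobin Hbb-bs was at 784 and 129 UMIs in this class, with 663 of the 784 in 1 cell, and its part in these values was not tested.

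In T-like cells, 125 with the combination and 91 with anti-CD27 alone, 36 of 1598 genes were past 2-fold higher (2.25%) and 46 past 2-fold lower (2.88%). At the lists' minimum of 10 UMIs these shares were 7.30% and 6.75%. The naive T cell list leaned to the combination, with 11 of 14 genes above 0, 2 past 2-fold higher and a median of 0.35. Dapl1, a gene of naive T cells, had 71 and 19 UMIs (1.45, interval 0.70 to 2.26) in 30 and 11 cells. Lef1, a transcription factor of naive T cells, had 91 and 51 UMIs, and Il7r had 103 and 60. Tcf7, a transcription factor of the same family as Lef1, had 60 and 56 UMIs (-0.36), and did not share the direction.

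The checkpoint and costimulatory list leaned the other way, with a median of -0.50 and 5 of 12 genes past 2-fold lower. Pdcd1 had 1 and 14 UMIs, Ctla4 7 and 18, and Icos, a costimulatory receptor of activated T cells, 17 and 31 (-1.32, interval -2.27 to -0.42). Klrg1, a receptor of terminally differentiated effector cells, had 4 and 37 UMIs, but 30 of the 37 came from 1 cell. Ccl5 had 85 and 120 UMIs (-0.95, interval -1.37 to -0.54). Of the 8 measured genes of the regulatory T list, 7 were below 0 and 1 was past 2-fold lower, but its median turned from -0.30 to 0.27 with no upper limit on genes.

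The largest T-like ratios in favour of the combination were those of Adar, an interferon-inducible RNA-editing enzyme, with 29 and 4 UMIs (2.40, interval 0.89 to 4.37), Ddx23, a splicing helicase, with 28 and 5, and Dpp4, a surface peptidase, with 31 and 6. Those against it were mostly MHC class II genes: Cd74 had 14 and 104 UMIs and H2-Aa 2 and 44. A single barcode of 5064 UMIs held 61 of the 104 Cd74 UMIs, and with that barcode alone left out the ratio was -2.15. Immunoglobulin RNA in T-like cells was likewise lower, at 182 and 853 CPM. The part of RNA from other cells in these values was not tested. Fli1, a transcription factor of blood cells, had 10 and 31 UMIs (-2.09). Hbb-bs had 156 and 759 UMIs in T-like cells, of which 641 were in 1 cell of anti-CD27 alone.

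**Figure D4:**
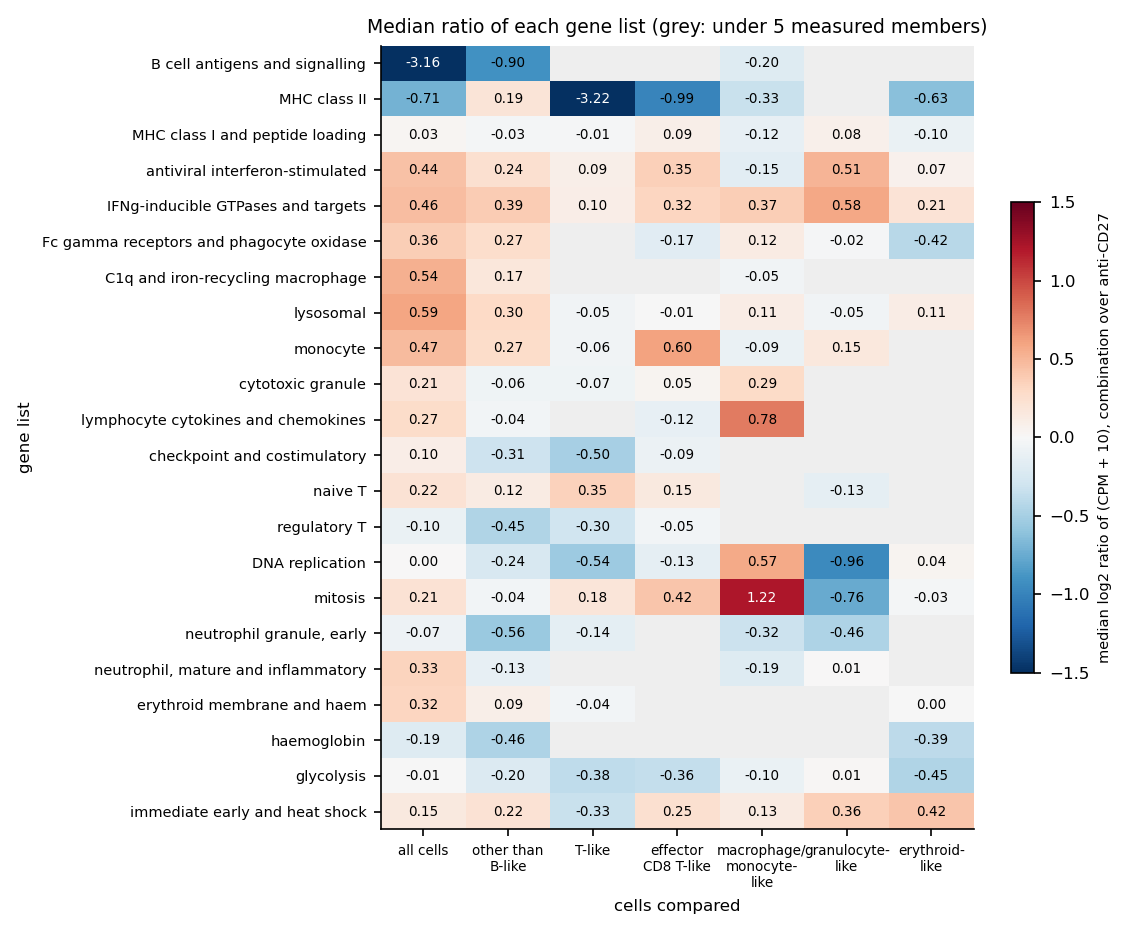
Median log2 ratio of CPM + 10, combination over anti-CD27, for each gene list (rows) in all cells, in cells other than the B lineage and in the 5 classes with at least 20 cells in both libraries (columns), with grey where fewer than 5 members were measured. The interferon-induced lists stand higher in granulocyte-like cells (0.51 and 0.58), and the mitosis list is lower there (-0.76) and higher in macrophage/monocyte-like cells (1.22).

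Macrophage/monocyte-like cells, 90 and 43, made up a larger share of the combination, while their Cxcl9 level was not higher. Cxcl9 had 529 UMIs in the combination and 292 with anti-CD27 alone, or 2204 and 2832 CPM of the class (log2 CPM ratio -0.36, interval -0.57 to -0.15). It was read in 48 of 90 cells (53.3%) and 22 of 43 (51.2%), and in 0 of 13 and 1 of 25 with isotype control and anti-CD20. In T-like cells, which should lack it, the shares were 0.8% and 4.396%. Thinned to 400 UMIs a cell, Cxcl9 was read in 32.2% and 39.5% of macrophage/monocyte-like cells. The class held 90.0% of all Cxcl9 UMIs with the combination and 90.7% with anti-CD27 alone. Over all cells its CPM was higher with the combination, and within the class it was lower. The class ratio ranged from -0.41 to -0.03 among the alternatives. The cluster led by Cxcl9 made up 81.1% and 88.4% of the class, and its part in this ratio was not tested.

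Fcgr4 was at 429 and 301 CPM of the class (0.51, interval -0.08 to 1.14), with 103 and 31 UMIs. Of the 19 genes for Fc gamma receptors and the phagocyte oxidase none was past 2-fold, and the median was 0.12. All 8 measured MHC class II genes were below 0, with a median of -0.33 and none past 2-fold, but the median was 0.04 with no upper limit on genes. Cd74 was at 10466 and 12655 CPM (-0.27), and H2-Ab1 and H2-Aa had ratios of -0.33 and -0.37. Isg15 had 114 and 62 UMIs (-0.34, interval -0.80 to 0.13), and 24 of 34 antiviral genes were below 0 with a median of -0.15, which was 0.08 with no upper limit on genes. IFNg-inducible genes had a median of 0.37 with 17 of 24 above 0, but in the monocyte-gene cluster by itself the median was 0.05 with 13 of 23 above 0, beside 0.04 over all genes measured there. Among them Iigp1, an immunity-related GTPase, had 442 and 100 UMIs (0.93, interval 0.61 to 1.25), whereas Socs1, an inhibitor of cytokine signalling that IFNg induces, had 19 and 31 (-1.93, interval -2.83 to -1.06).

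Over the class, 99 of 2242 genes were past 2-fold higher with the combination (4.42%) and 40 past 2-fold lower (1.78%). Cd36, a scavenger receptor for lipids and dying cells, had 81 and 4 UMIs (3.12, interval 1.71 to 5.03) in 11 and 1 cells, with 34 of the 81 in 1 cell. Saa3 had 47 UMIs in 8 cells and 0 UMIs. Lgmn, a lysosomal protease of phagocytes, had 74 and 10 UMIs (1.67), while the 22 lysosomal genes as a list had a median of 0.11 with 1 past 2-fold. In the monocyte-gene cluster by itself Hmox1, the enzyme that breaks down haem, had 35 and 2 UMIs in 13 and 2 cells (2.999, interval 1.04 to 6.10), and Vcam1, an adhesion molecule of iron-recycling macrophages, had 52 and 8 (1.57, interval 0.49 to 2.86). The 12 measured C1q and iron-recycling genes had a median of 0.55 in that cluster and 4 were past 2-fold higher, as were 9.85% of all genes measured there, beside a median of -0.05 over both clusters. Haemoglobin RNA was also higher in the class, with 413 and 79 UMIs of Hbb-bs (log2 CPM ratio 1.17), 107 of them in 1 cell, and its part in these values was not tested. C1qb, a chain of the complement component C1q, had 195 and 56 UMIs (0.58, interval 0.15 to 1.04). Lower with the combination were Tmem176b, a membrane protein of myeloid cells, with 16 and 27 UMIs (-1.97), and Cd5l, a secreted macrophage protein, with 14 and 22.

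Mitosis genes were higher among macrophage/monocyte-like cells of the combination, with 8 of 15 past 2-fold higher, 1 past 2-fold lower and a median of 1.22, beside 0.04 over all genes measured in the class, of which 9.26% were past 2-fold higher and 4.68% lower. Mki67 had 75 and 9 UMIs (1.84, interval 0.84 to 3.02) in 15 and 6 cells, and Top2a, the topoisomerase of dividing cells, had 88 and 7 (2.43, interval 1.33 to 3.79). Birc5, a chromosomal passenger protein, had 19 and 0 UMIs, whereas Ube2c had 7 and 8. Of 14 DNA replication genes 4 were past 2-fold higher, among them Mcm3, a subunit of the replicative helicase, with 21 and 2 UMIs. The RNA came from few cells: 11 of 90 (12.2%, interval 6.26 to 20.8) and 4 of 43 (9.30%, interval 2.59 to 22.1) held at least 5 mitosis UMIs, and 1 cell held 116 of the 465 in the combination. With barcodes over 3000 genes kept, the clustering placed 262 cells of the 4 libraries in this class in place of 171, and the median of its mitosis list was -0.33. The erythroid-like class then held 73 cells in place of 118, and which cells changed class was not tested.

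Ccl5 in this class, with 110 and 27 UMIs, rested on 1 barcode of 6057 UMIs that held 71 of the 110 together with all 14 Ifng UMIs, 23 of Nkg7, 8 of Cd3d and 86 of Lyz2, which are T cell and macrophage genes in the same barcode. With that barcode left out and every cell of anti-CD27 alone kept, the log2 CPM ratio was -0.65.

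Granulocyte-like cells, 72 with the combination and 50 with anti-CD27 alone, had the highest medians of both interferon-induced lists among the 5 classes compared. Over the class 57 of 1185 genes were past 2-fold higher with the combination (4.81%) and 31 past 2-fold lower (2.62%). Of 30 antiviral genes measured, 5 were past 2-fold higher and 27 were above 0, with a median of 0.51. Of 23 IFNg-inducible genes 8 were past 2-fold higher, 1 was past 2-fold lower and 18 were above 0, with a median of 0.58. Over all 3282 genes of at least 10 UMIs in the class, 9.02% were past 2-fold higher and 7.16% lower, and the median was -0.01.

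Interferons act on such genes mainly through 2 kinds of promoter element. Type I interferons work through a complex that binds the interferon-stimulated response element (ISRE), a repeat of GAAA that IRF1 binds too, and IFNg works through the gamma-activated site (GAS). The letters searched were GAAA, any 2 bases and GAAA for the ISRE, with its reverse complement, and the palindrome TTC, any 3 bases and GAA for the GAS. The 250 bases before the transcription start of 2 antiviral genes (Rsad2 and Isg15) and 2 IFNg-inducible GTPases (Gbp7 and Irgm2) are shown because all 4 were higher in granulocyte-like cells, and they were picked after the values were seen. The sequences are those of RefSeq on GRCm38.p6, with matches to either element in capitals. They lie at chr12:26456453-26456702 on the minus strand (Rsad2), chr4:156200819-156201068 on the minus strand (Isg15), chr3:142530086-142530335 on the plus strand (Gbp7) and chr11:58214727-58214976 on the plus strand (Irgm2).
Rsad2: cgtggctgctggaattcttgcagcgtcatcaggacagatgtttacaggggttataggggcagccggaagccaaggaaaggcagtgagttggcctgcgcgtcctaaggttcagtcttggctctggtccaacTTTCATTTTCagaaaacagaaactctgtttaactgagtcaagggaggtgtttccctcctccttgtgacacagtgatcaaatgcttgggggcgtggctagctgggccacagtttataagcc
Isg15: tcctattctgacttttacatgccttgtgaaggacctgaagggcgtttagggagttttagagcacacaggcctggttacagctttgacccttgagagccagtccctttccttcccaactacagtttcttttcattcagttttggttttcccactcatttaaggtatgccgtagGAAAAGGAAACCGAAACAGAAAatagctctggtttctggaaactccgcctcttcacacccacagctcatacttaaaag
Gbp7: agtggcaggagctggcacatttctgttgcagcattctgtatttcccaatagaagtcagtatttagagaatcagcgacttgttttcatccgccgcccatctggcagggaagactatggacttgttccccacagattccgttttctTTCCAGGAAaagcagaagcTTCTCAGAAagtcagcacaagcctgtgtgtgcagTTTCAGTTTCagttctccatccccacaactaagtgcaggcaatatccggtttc
Irgm2: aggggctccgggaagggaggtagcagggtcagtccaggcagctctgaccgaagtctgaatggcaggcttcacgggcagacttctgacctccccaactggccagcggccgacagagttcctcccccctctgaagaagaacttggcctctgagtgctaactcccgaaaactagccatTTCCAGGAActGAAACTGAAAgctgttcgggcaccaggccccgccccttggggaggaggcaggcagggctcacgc

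Rsad2 had 1 ISRE match and Isg15 had 3 that overlap. Gbp7 and Irgm2 had 1 each, and also 2 and 1 GAS matches. Among all 32851 promoters of the RefSeq table, 2.98% held an ISRE match and 7.02% a GAS match in these 250 bases on either strand. Of the 30 promoters of the antiviral list found there, 36.7% and 16.7% did, and of the 20 promoters of the IFNg-inducible list 60% and 40%. A match describes the letters only and is no evidence of binding in these cells.

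Isg15 had 240 UMIs in granulocyte-like cells of the combination and 101 in those of anti-CD27 alone, or 1524 CPM (interval 1338 to 1730) and 824 CPM (interval 671 to 1001), a log2 CPM ratio of 0.89 (interval 0.55 to 1.24). With isotype control and anti-CD20 it was at 125 and 757 CPM, on 9 cells each. It was read in 51 of 72 cells (70.8%) and 30 of 50 (60%), and at 400 UMIs a cell in 45.8% and 22%. In T-like cells the shares were 13.6% and 11.0%. Rsad2, the antiviral enzyme viperin, had 124 and 32 UMIs (1.59, interval 1.02 to 2.20) in 34 and 15 cells. Usp18, which removes Isg15 from proteins, had 12 and 1 UMIs.

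Gbp7, a guanylate-binding protein, had 257 and 96 UMIs (1.06, interval 0.72 to 1.41) in 54 and 34 cells. Irgm2, a regulator of immunity-related GTPases, had 26 and 9 (1.17, interval 0.03 to 2.45). Irf1, a transcription factor induced by IFNg, had 101 and 33 UMIs (1.25, interval 0.67 to 1.87). Cxcl10, a chemokine for CXCR3-bearing T cells, had 46 and 11 (1.70, interval 0.73 to 2.80). Other interferon-induced genes were not higher. Gbp6 had 3 and 7 UMIs, and Ifitm3, the most abundant of the group in these cells, had a ratio of -0.09 (interval -0.29 to 0.10). In the mature cluster by itself the medians were 0.29 (antiviral) and 0.77 (IFNg-inducible), beside 0.12 over all genes measured there. In the granule-gene cluster they were 0.45 and 0.15, beside -0.07.

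**Figure D5:**
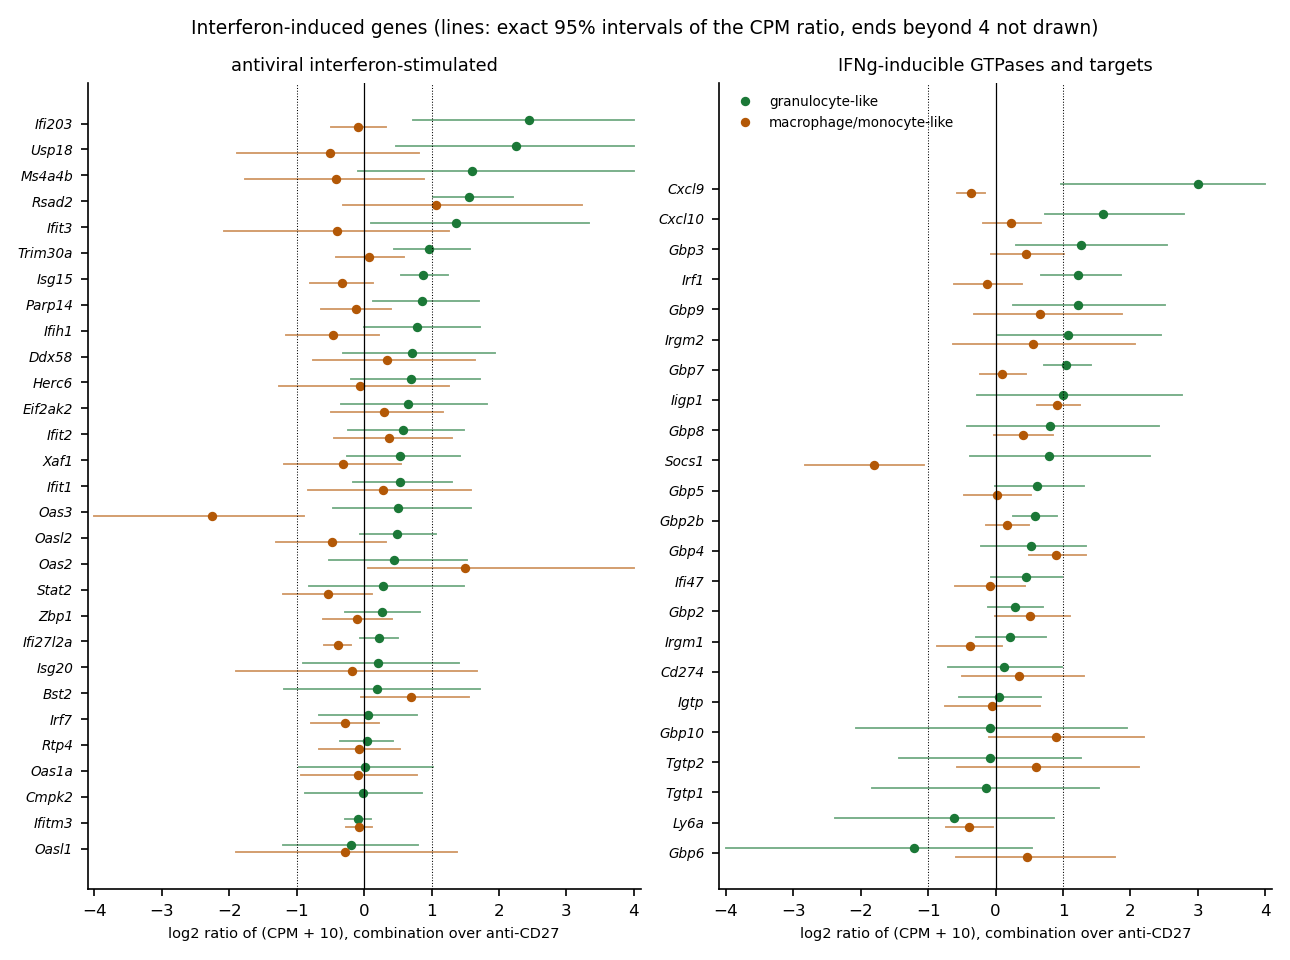
Log2 ratio of CPM + 10, combination over anti-CD27, of antiviral genes and of IFNg-inducible genes measured in granulocyte-like cells, for these and for macrophage/monocyte-like cells, with exact 95% intervals of the CPM ratio as lines. Most antiviral genes lie above 0 in granulocyte-like cells, where the median of the list was 0.51, and lie on both sides of 0 in macrophage/monocyte-like cells, where it was -0.15.

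Irg1 had 66 and 5 UMIs in the class, or 419 CPM (interval 324 to 533) and 40.8 CPM (interval 13.2 to 95.2), a log2 CPM ratio of 3.36 (interval 2.07 to 5.03). It was read in 21 of 72 cells (29.2%) and 1 of 50 (2%), and at 400 UMIs a cell in 20.8% and 2%. T-like cells had it in 0 and 1.10% of cells. Irg1 was also among the 15 leading genes of the mature neutrophil cluster, which made up 65.3% of the class with the combination and 54.0% with anti-CD27 alone. Some inflammatory products were also higher. Il1b, the cytokine IL-1 beta, had 309 and 143 UMIs (0.75, interval 0.46 to 1.05), Il1rn, its receptor antagonist, 37 and 12, and Tnf 16 and 4. The 21 measured genes of the mature and inflammatory list nonetheless had a median of 0.01, with 2 past 2-fold higher and 2 lower. Stfa2, a protease inhibitor of neutrophils, had 35 and 68 UMIs, and S100a8, a calcium-binding protein that neutrophils carry in bulk, had a ratio of 0.07.

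Genes of dividing and early granulocytes were lower with the combination. Of 21 mitosis genes 7 were past 2-fold lower and 18 were below 0, with a median of -0.76, and of 12 DNA replication genes 5 were past 2-fold lower, with a median of -0.96. Ccna2 and Cdk1, a cyclin and the kinase it activates, had 2 against 12 and 4 against 13 UMIs. Pcna, the sliding clamp of DNA polymerase, had 12 and 26 UMIs and Hells, a chromatin remodeller, had 1 and 9. The share of cells with at least 5 mitosis UMIs was 16.7% (12 of 72) and 30% (15 of 50). Within the granule-gene cluster the medians were -0.71 and -0.9954, and 11 of 25 and 13 of 23 cells held at least 5 mitosis UMIs.

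The early granule list had a median of -0.46 with 15 of 17 genes below 0 and 3 past 2-fold lower. Mpo, the myeloperoxidase of the first granules, had 33 and 78 UMIs, but 32 and 73 of them lay in 1 cell of each library. With only the anti-CD27 cell of 73 UMIs left out the ratio was 2.28, and the combination cell of 32 stayed in. Camp, the cathelicidin of later granules, had a ratio of -0.04, and Ltf, lactoferrin, -0.16. Ccl5, at 62 and 4 UMIs, rested on 1 barcode with 46 of the 62 that also held 481 UMIs of S100a8 and 4 of Cd3d. Hbb-bs had 150 and 790 UMIs, with 669 of the latter in 1 cell.

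Erythroid-like cells, 53 and 35, are red cell precursors, which the mouse spleen can produce. Here 67 of 1511 genes were past 2-fold higher with the combination (4.43%) and 36 past 2-fold lower (2.38%), or 9.43% and 6.16% from 10 UMIs. All 6 measured haemoglobin genes were below 0, with a median of -0.39 and none past 2-fold, but the median was 0.20 with at least 500 genes a cell. Hbb-bs was at 46464 and 60072 CPM (-0.37). The 23 erythroid membrane and haem genes had a median of 0.00, and Car2, a carbonic anhydrase of red cell precursors, had 512 and 298 UMIs (0.28). Mki67 had 275 and 153 UMIs (0.35, interval 0.06 to 0.64), and the 26 mitosis genes had a median of -0.03. At least 5 mitosis UMIs were held by 86.8% (46 of 53) and 71.4% (25 of 35) of the cells.

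Isg15 in erythroid-like cells went against its direction in granulocyte-like cells, with 45 and 59 UMIs (-0.89, interval -1.48 to -0.31), and Ube2l6, the enzyme that attaches Isg15 to proteins, had 20 and 53 (-1.91). Tapbp, which helps load peptides on MHC class I, had 50 and 13 UMIs and was past 2-fold higher. Cep290, a centrosomal protein, had 50 and 10 UMIs (1.82, interval 0.83 to 2.97). The differences in Isg15 between classes were not tested, since each class came from the same 2 libraries.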

How the data were processed

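Drop-seq counts the RNA of single spleen cells captured with barcoded beads in droplets. The table the authors deposited holds raw UMI counts, not normalized, for 17252 gene symbols and 3198 barcodes of 4 libraries, 1 per treatment. Per the labels and the study's methods it came from STAR 2.5.0a on mm10 and the Drop-seq tools, with a barcode selection by the authors, and whether strand was used is not given in the sources used here. The columns that begin with PBS were read as isotype control. The labels give the antibody days stated in the text, whereas the methods of the single-cell experiment give earlier ones.

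Barcodes with 300 to 3000 detected genes were kept. All 4 libraries were clustered together with scanpy 1.11.5 (10000 counts a cell, log1p, 2000 variable genes, 30 components, 15 neighbours, Leiden at resolution 1.0). Of the 23 result lists, only that of B cell antigens and signalling could enter the variable genes. Clusters were named from at least 3 markers among their 30 leading genes. NK-like clusters also had to have under 30% of cells with Cd3 and effector CD8 T-like ones at least 20% with Cd8. Scrublet called 16 cells as doublets, which were kept and removed in an alternative. UMIs were summed per library and class and divided by that class's total (CPM). Shares have Clopper-Pearson intervals, their differences Newcombe intervals, levels exact Poisson intervals and ratios exact conditional intervals, all at 95%. Intervals take each UMI as independent and are too narrow where 1 cell holds many. Classes were compared from 20 cells in both libraries. With 1 library per treatment no test was made and no p-value is given. The computations were tested on simulated data.

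Genes were named by a rule: in each set of cells, the 6 largest and 6 smallest CPM ratios among genes with at least 30 UMIs in at least 5 cells and an interval without 1. Immunoglobulin, haemoglobin, ribosomal, mitochondrial, B marker (except over all cells) and predicted genes were left out of the rule. Added to these were the 9 genes the study singles out and, from each list, the members with most UMIs or past 2-fold. The members, lists and rules were chosen with earlier results of these data known. Some genes of the lists are not reported here by name, though counts and medians include them. In the lists, 7 symbols were matched through older names. Alternatives changed gene limits, clustering, doublets, near-identical barcodes, scaling (TMM of edgeR 4.0.16 among others), pseudocount, UMI minimum and single cells with most UMIs.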

Additional observations from a re-analysis of the deposited data

Results flagged for a closer look

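Germinal center B-like cells made up a smaller share of all cells with the combination than with anti-CD27 alone, a difference of -1.41 percentage points, and a larger share with anti-CD20 alone than with isotype control, a difference of 9.72 points. The same antibody was added in both contrasts and the differences have opposite signs, but the difference between them was not tested.

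Cell cycle genes had opposite signs in the 2 myeloid classes, and the difference between the classes was not tested either. In granulocyte-like cells the median log2 ratio of CPM + 10, combination over anti-CD27, was -0.76 for mitosis genes and -0.96 for DNA replication genes. In macrophage/monocyte-like cells the same medians were 1.22 and 0.57. The macrophage/monocyte value rests on few cells, since 11 of 90 and 4 of 43 held at least 5 mitosis UMIs.

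Barcodes over 3000 detected genes, which entered only the alternative without an upper limit on genes, numbered 30 in the combination and 14 with anti-CD27 alone, beside 2 with isotype control and 5 with anti-CD20. By their own markers, 18 of the 30 and 5 of the 14 were erythroid-like and 4 and 6 were T-like. They held 456755 and 196505 UMIs.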

How the results depend on the processing

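No paired analysis was possible because each treatment had 1 library, and for the same reason no library could be left out. All 54 recomputed share differences moved by less than their counting interval. Both B classes together stayed between -39.0 and -36.5 points, and macrophage/monocyte-like cells between 5.60 and 6.96. Of the recomputed counts of genes past 2-fold, 89 stayed within 1.5 times the value reported and 30 did not. With the mean over cells of each cell's CPM, 199 genes were higher and 238 lower over all cells, 118 and 95 without the B lineage, and 126 differed either way in T-like, 178 in effector CD8 T-like, 237 in macrophage/monocyte-like, 161 in granulocyte-like and 231 in erythroid-like cells. With a pseudocount of 50 CPM the same counts were 14, 51, 8, 7, 38, 40, 54, 42 and 46, and with a minimum of 100 UMIs 43, 60, 18, 7, 9, 8, 10, 14 and 5, where fewer genes were counted. With no upper limit on genes, 33 were higher without the B lineage and 196 differed in erythroid-like cells, and in the largest granulocyte-like cluster by itself, an alternative chosen after seeing the data, 53 did.

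Of 1650 recomputed list medians 142 changed sign, in 58 of 118 lists and sets of cells. In 1 case the median reported was at least 1 in size, that of mitosis genes in macrophage/monocyte-like cells, at -0.33 with no upper limit on genes. Antiviral genes in granulocyte-like cells ranged from 0.21 to 0.55, IFNg-inducible genes from 0.43 to 0.85 and mitosis genes from -0.81 to -0.62. Of 1520 recomputed gene values 50 changed sign, 9 of them where the interval of the reported value excluded 0. With no upper limit on genes these 9 included Ccl5 (-0.44) and Ifng (-0.83) in macrophage/monocyte-like cells and Papola (0.44) in erythroid-like cells. Ccl5 in macrophage/monocyte-like cells was also -0.63 with near-identical barcodes removed, -0.0358 as the mean over cells and -0.65 without the cell with most UMIs. That cell was the 1 with most UMIs over both libraries together, so none was left out of the other library. Leaving it out gave 0.33 for Ccl4 and 0.13 for Mpo without the B lineage and 2.28 for Mpo in granulocyte-like cells. For these values it was a cell of anti-CD27 alone. The causes of the other changes were not tested. In granulocyte-like cells thinned to 800 UMIs, which left out 12 and 8 shallower cells, Isg15 was read in 55.0% and 45.2% and Irg1 in 18.3% and 2.4%. Depth limits the values of single genes, and with 1 library per treatment the spread between mice is unknown.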

Other observations

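Dendritic-like cells, led by Xcr1, Naaa and Cst3, numbered 18 with anti-CD27 alone and 23 with the combination, too few in the former for a comparison. They held 3.17% and 11.9% of the Mki67 UMIs of their library. Erythroid-like cells held the largest part of Mki67 in both, 34.6% and 41.5%, followed by effector CD8 T-like cells with 24.2% and 22.02%.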
